A study of Mus musculus with 4 samples.

Results

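The genes of glucose breakdown were followed in RNA-seq data of E14 cells, a line of mouse embryonic stem cells (mESCs), with and without Npac. The set was fixed by name and holds 38 genes of the 56748 listed. It covers glucose uptake, every step of glycolysis to pyruvate and lactate, the entry of pyruvate into the mitochondrial cycle, the pentose phosphate pathway and the transcription factor gene Hif1a. The WT group was 2 libraries of wild-type E14 cells (WT1 and WT2), and the Npac KO group was 1 library from each of 2 clones (KO1 and KO2) made by electroporating Cas9 and guide RNA plasmids and selecting with puromycin. Both groups were labelled as E14 mESCs, and the study cultured its cells without feeders in a serum medium with leukemia inhibitory factor and pyruvate. Each clone stands for itself in the Npac KO group, and nothing in the labels says that WT1 and WT2 came from separate cultures, so the p-values measure the spread between these libraries, which may be technical in WT. Npac is the product of Glyr1, a nuclear protein that binds nucleosomes.

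Glycolysis splits glucose into pyruvate in the cytosol and yields ATP without oxygen. Most of its steps are carried out by one of several isozymes, enzymes of different genes that catalyse the same reaction, and hexokinase, phosphofructokinase and pyruvate kinase are the steps at which the flow is regulated. The pentose phosphate pathway branches off after hexokinase and makes NADPH and ribose for nucleotides. Pluripotent cells are known for a high rate of glycolysis, and many glycolytic genes are classical targets of HIF, the oxygen-regulated factor whose alpha subunit Hif1a encodes.

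All 38 genes passed the filter on low counts. Levels are given as CPM, the reads on a gene scaled to a common library size by TMM normalization, and levels of different genes are compared only as FPKM, which divides by gene length. A gene was called up-regulated or down-regulated in Npac KO cells when edgeR's quasi-likelihood test, fitted over 18157 genes, gave a p under 0.05 after Benjamini-Hochberg adjustment and the fold change exceeded 1.5. Of the 38 genes, 6 were up-regulated (15.8%), where 11.0% of all tested genes were, and 3 were down-regulated (7.89%), where 10.7% of all tested genes were. Both KO libraries lay above both WT libraries for 17 of the genes and below them for 12, against 33.2% and 32.5% of all tested genes. The median log2 fold change was 0.24 over the 38 genes and 0.0015 over all tested genes. With edgeR, the set as a whole was therefore called at shares near those of all genes. DESeq2 called 10 of the 38 genes up and 5 down, beside 2011 up and 2078 down of the 18157 genes. With DESeq2 the share called up was thus larger in the set than over all genes. The median of the set was 0.0417 without WT1 and 0.11 without KO1. In these bulk libraries a change in the share of cells that express a gene and a change in RNA per cell cannot be told apart. The glucose carriers and Hk2 were lower in Npac KO cells, while Pfkl, Pfkm, Aldoc, Eno1, Pkm and Ldha were higher.

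**Figure D1:**
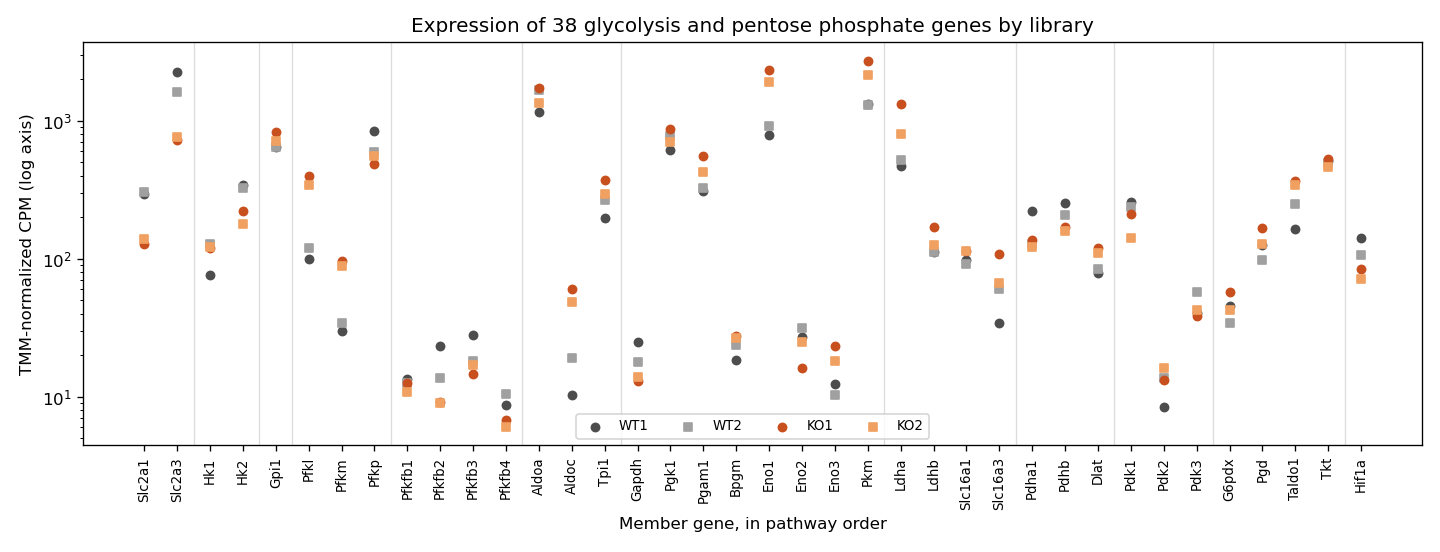
TMM-normalized CPM (log axis) of the 38 genes in pathway order, with 1 point for each library (grey: WT1 and WT2, orange: KO1 and KO2) and vertical lines between steps. The WT points of Slc2a1, Slc2a3 and Hk2 lie above both KO points, and the KO points of Pfkl, Pfkm, Aldoc, Eno1, Pkm and Ldha lie above both WT points.

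Total counts lay between 15850805 and 16965120 per library. Glyr1 fell from 259 CPM in WT1 and 178 CPM in WT2 to 47.9 CPM in KO1 and 51.3 CPM in KO2 (log2 fold change -2.14, standard error 0.23, edgeR adjusted p = 0.00174). Of 8 ES cell markers, Zfp42 was down-regulated and Klf2 up-regulated. The summed level of the 8 was 6211 and 4855 CPM in WT and 4538 and 4264 CPM in Npac KO libraries. Both KO libraries thus lay below both WT libraries for this sum, which is led by the most abundant markers. Taken singly, 4 of the 8 markers lay below WT in both KO libraries and 3 lay above. Of all tested genes, 32.5% lay below and 33.2% above. The summed CPM of the other marker lists was 35.8 and 59.1 in WT and 45.1 and 50.7 in Npac KO libraries for 7 fibroblast markers (Col3a1 and Dcn at 0 throughout), 31.8 and 32.5 against 20.3 and 27.7 for 6 primitive endoderm markers, and 92.3 and 67.4 against 65.6 and 73.3 for 5 neural markers. The 3 erythroid markers summed to at most 0.92 CPM. Single markers were called within these lists, Col1a1 (log2 fold change 1.29) and Neurod1 (2.03) up and Sox7 (-4.48) and Sox1 (-2.34) down, and their part in the results was not tested. The genes of chromosomes 8 and 11 were shifted upwards in both KO libraries, by a median log2 difference of 0.51 (KO1) and 0.52 (KO2) on chromosome 8 and 0.51 (KO1) and 0.48 (KO2) on chromosome 11. None of the 38 genes is on chromosome 8, and 4 are on chromosome 11 (Aldoc, Eno3, Slc16a3 and Pdk2).

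Both glucose carriers were down-regulated. Slc2a3 (ENSMUSG00000003153, chromosome 6), the gene of a high-affinity glucose carrier, was at 2252 CPM in WT1 and 1613 CPM in WT2, and at 720 CPM in KO1 and 756 CPM in KO2. Its KO libraries were close together and far below either WT library, a fall of 1.39 on the log2 scale (standard error 0.22, edgeR adjusted p = 0.007). Slc2a1 (ENSMUSG00000028645, chromosome 4), the gene of the basal glucose carrier, was at 295 and 304 CPM in WT1 and WT2 and at 129 and 138 CPM in KO1 and KO2. The SD was 6.27 CPM in WT and 6.95 CPM in Npac KO cells (n = 2), and the log2 fold change was -1.17 (standard error 0.18, edgeR adjusted p = 0.005). Slc2a3 was the main carrier by FPKM in every library, with 78.7% and 72.0% of the summed FPKM of the pair in WT and 73.0% and 72.6% in Npac KO cells, and these shares overlapped between the groups. The summed FPKM of both carriers was 350 ± 60.5 in WT and 138 ± 4.05 in Npac KO cells (SD, n = 2). Both calls were kept with each library left out in turn.

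Hexokinase traps glucose in the cell by phosphorylating it. Hk2 (ENSMUSG00000000628, chromosome 6), the isozyme known for its induction in growing cells, was at 339 and 327 CPM in WT1 and WT2 and at 220 and 179 CPM in KO1 and KO2. The groups did not overlap, and Hk2 was down-regulated (log2 fold change -0.74, standard error 0.19, edgeR adjusted p = 0.030). This call was lost without KO1 (log2 fold change -0.90, adjusted p = 0.106), without KO2 (-0.59, adjusted p = 0.322) and with the median difference of each chromosome removed (-0.62, adjusted p = 0.0646). Hk1, the housekeeping isozyme, was at 76.4 CPM in WT1 and 128 CPM in WT2, which enclosed both KO libraries (119 and 120 CPM). Hk2 made up 86.4% and 78.5% of the summed hexokinase FPKM in WT1 and WT2 and 72.6% and 68.0% in KO1 and KO2. With 2 libraries a group, an exact permutation test of such a share cannot go below p = 0.333 (two-sided), so all isozyme shares are given as descriptions.

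Gpi1, which converts glucose phosphate to fructose phosphate, was not called. It was at 646 and 649 CPM in WT1 and WT2 and at 824 and 712 CPM in KO1 and KO2 (log2 fold change 0.25, edgeR adjusted p = 0.371).

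Phosphofructokinase, the committed step of glycolysis, differed in the make-up of its isozymes. Pfkl (ENSMUSG00000020277, chromosome 10), the liver isozyme, was at 98.9 and 120 CPM in WT1 and WT2 and at 398 and 342 CPM in KO1 and KO2. The lower KO library was thus far above the higher WT library, with a mean 3.39 times that of WT (log2 fold change 1.76, standard error 0.20, edgeR adjusted p = 0.002). Pfkm (ENSMUSG00000033065, chromosome 15), the muscle isozyme, was at 29.7 and 34.4 CPM in WT1 and WT2 and at 96.2 and 89.0 CPM in KO1 and KO2 (log2 fold change 1.53, standard error 0.19, adjusted p = 0.003). It overlaps Senp1 on the opposite strand, and the strand setting of the counting is not given in the sources used here, so reads of the pair may not be told apart. Senp1 held 1142 and 849 reads in WT and 1126 and 1247 reads in Npac KO libraries.

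Pfkp, the platelet isozyme, was the most abundant by mean FPKM and was not called. It was at 838 and 591 CPM in WT1 and WT2 and at 486 and 554 CPM in KO1 and KO2 (log2 fold change -0.46, edgeR adjusted p = 0.178). It overlaps Pitrm1 on the opposite strand, which held 2509 and 2517 reads in WT and 2801 and 3063 reads in Npac KO libraries. In shares of the summed phosphofructokinase FPKM, Pfkp took 72.5% in WT1 and 61.0% in WT2 but 29.1% in KO1 and 34.7% in KO2. Pfkl took 17.2% and 24.8% in WT and 47.8% and 43.0% in Npac KO cells, and Pfkm took 10.3% and 14.2% in WT and 23.1% and 22.4% in Npac KO cells. By FPKM, the leading isozyme was therefore Pfkp in both WT libraries and Pfkl in both KO libraries. This order depends on the gene lengths used, 13401 bases for Pfkp and 6675 bases for Pfkl. By reads, Pfkp led in every library, with 7558 reads in KO1 and 9586 in KO2 against 6185 and 5914 for Pfkl. The summed FPKM of the 3 genes was 78.7 ± 9.88 in WT and 121 ± 5.11 in Npac KO cells (SD, n = 2). The calls of Pfkl and Pfkm were kept under all 11 alternative settings and with each library left out.

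The Pfkfb genes encode bifunctional enzymes that make and remove the main activator of phosphofructokinase. None of the 4 was called, and all 4 had negative log2 fold changes, between -1.03 and -0.16. Pfkfb1, the most abundant by mean FPKM, was at 13.5 and 12.5 CPM in WT1 and WT2 and at 12.5 and 10.8 CPM in KO1 and KO2. By reads, Pfkfb3 led in every library. Pfkfb1 overlaps Apex2 on the opposite strand, which held 187 and 149 reads in WT and 172 and 229 reads in Npac KO libraries. Pfkfb2 overlaps Yod1 on the opposite strand, which held 214 and 230 reads in WT and 267 and 220 reads in Npac KO libraries. Pfkfb2 came nearest to the threshold at -1.03 (standard error 0.33, edgeR adjusted p = 0.0588). It was the 1 gene of the 4 with an unadjusted p under 0.05, and DESeq2 called it lower. At that unadjusted cut edgeR gave 3403 higher and 3406 lower of the 18157 tested genes. Both KO libraries lay below both WT libraries for Pfkfb2, Pfkfb3 and Pfkfb4, as for 32.5% of all tested genes.

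**Figure D2:**
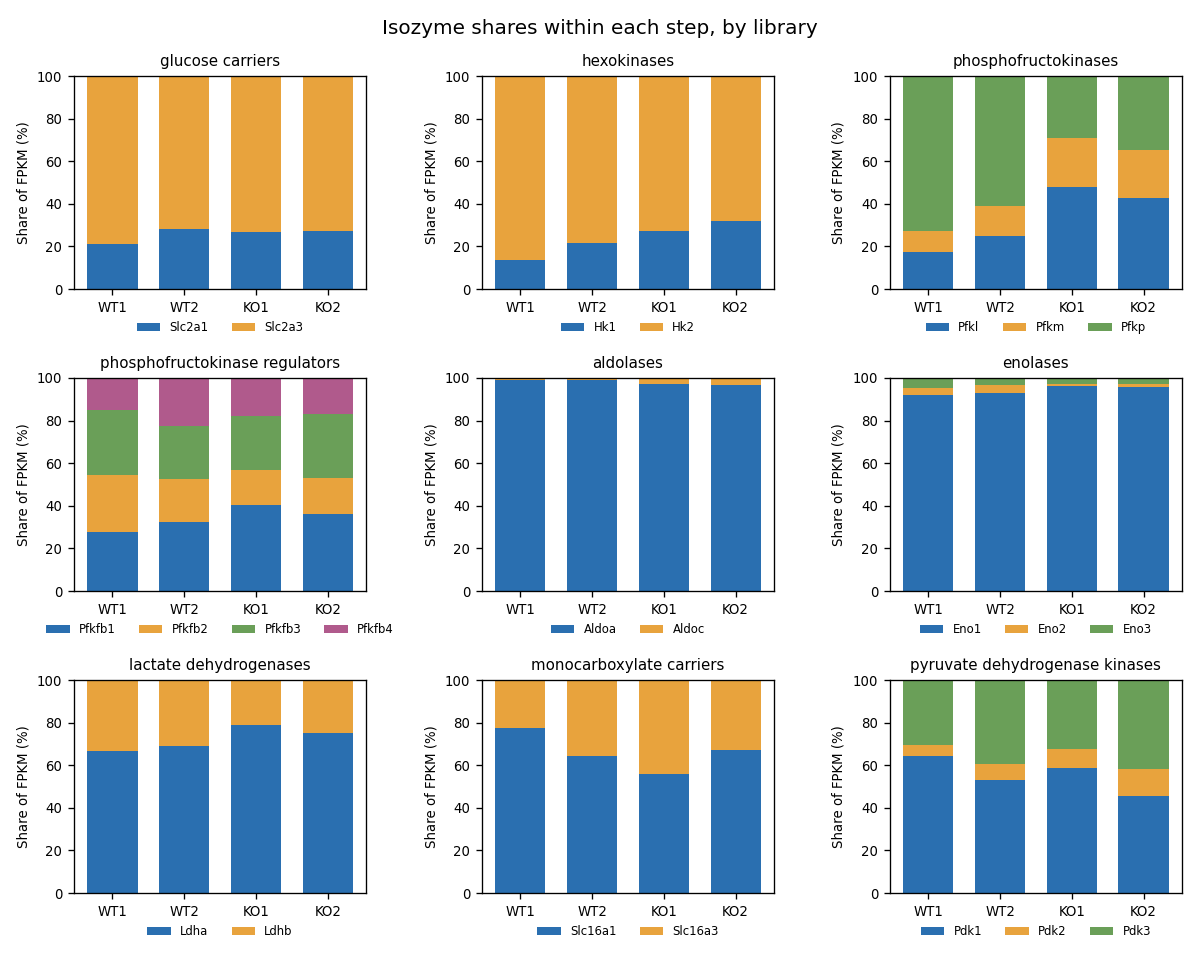
Share of the summed deposited FPKM (%) held by each isozyme within 9 steps, with 1 stacked bar for each library. Pfkp falls from 72.5% and 61.0% of phosphofructokinase FPKM in WT1 and WT2 to 29.1% and 34.7% in KO1 and KO2, while the 2 glucose carriers keep overlapping shares.

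Aldolase cleaves the sugar into a pair of triose phosphates. Aldoa, the ubiquitous isozyme and the gene with the highest mean FPKM of the set, was at 1149 and 1659 CPM in WT1 and WT2 and at 1735 and 1354 CPM in KO1 and KO2. The groups overlapped (log2 fold change 0.14, edgeR adjusted p = 0.721). A further row of the deposited table also named Aldoa (ENSMUSG00000114515) held only 66 and 51 reads in WT and 23 and 40 reads in Npac KO libraries and was not called (adjusted p = 0.199). Aldoc (ENSMUSG00000017390, chromosome 11), the brain isozyme, was at 10.3 and 19.0 CPM in WT1 and WT2 and at 59.9 and 48.5 CPM in KO1 and KO2. It was up-regulated by 1.88 on the log2 scale (standard error 0.31, adjusted p = 0.007), and by 1.39 (adjusted p = 0.0213) once the chromosome medians were removed. Its share of aldolase FPKM nevertheless stayed small, at 0.79% and 1.01% in WT and 2.99% and 3.10% in Npac KO cells. Tpi1, which interconverts the triose phosphates, had a log2 fold change of 0.52 and was not called (adjusted p = 0.127).

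The steps from triose phosphate to pyruvate return the ATP invested earlier. Of their 8 genes, Eno1 and Pkm were up-regulated. None was down-regulated by edgeR or DESeq2, although Gapdh was lower at an unadjusted p under 0.05, and DESeq2 called 4 genes higher, adding Pgam1 and Eno3. Pkm (ENSMUSG00000032294, chromosome 9), the pyruvate kinase of most tissues, was at 1322 and 1298 CPM in WT1 and WT2 and at 2719 and 2159 CPM in KO1 and KO2. WT1 and WT2 were nearly equal, KO1 was the highest, and the log2 fold change was 0.90 (standard error 0.21, edgeR adjusted p = 0.021). The call was lost without KO1 (log2 fold change 0.71, adjusted p = 0.149). The counts are per gene and pool the M1 and M2 isoforms that splicing makes from Pkm. An unclassified transcript on the same strand, Gm49759, overlaps Pkm and held 174 and 229 reads in WT and 865 and 759 reads in Npac KO libraries.

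Eno1 (ENSMUSG00000063524, chromosome 4), the ubiquitous enolase, was at 781 and 919 CPM in WT1 and WT2 and at 2345 and 1893 CPM in KO1 and KO2. Its log2 fold change was 1.32 (standard error 0.21, edgeR adjusted p = 0.007). Near-identical copies of Eno1 moved the opposite way. Eno1b, a copy of 99.5% sequence identity that is listed as protein-coding, held 4029 and 5784 reads in WT but 704 and 591 reads in Npac KO libraries (log2 fold change -2.91, adjusted p = 0.000610). The pseudogene Gm4735 held 656 and 859 reads in WT and 193 and 156 reads in Npac KO libraries (log2 fold change -2.10, adjusted p = 0.00243). In all, 8 copies took 28.3% and 29.4% of the summed reads in WT but 2.42% and 2.25% in Npac KO libraries. With the copies added to Eno1, the log2 fold change was 0.84 and the gene was still called (adjusted p = 0.0306), so 1.32 is the larger of 2 estimates. Whether reads were assigned to Eno1 and its copies in the same way in all libraries was not tested.

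Gapdh, often used as a reference gene, could barely be measured in these counts. The gene itself held 383 and 309 reads in WT and 202 and 241 reads in Npac KO libraries, while 183 copies held between 81.5% and 87.9% of the summed reads. It overlaps Iffo1 on the opposite strand, which held 435 and 569 reads in WT and 237 and 343 reads in Npac KO libraries, more than Gapdh in each library. Its log2 fold change was -0.67 alone (edgeR adjusted p = 0.114) and -0.33 with the copies (adjusted p = 0.258), and neither was called. Its FPKM of 5.13 in WT cells was therefore that of the minority of reads assigned to the gene and is not comparable with its neighbours in the pathway. For Pdhb, the third gene in the plot of copies, the copy Gm6123 held at most 4.45% of the summed reads.

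**Figure D3:**
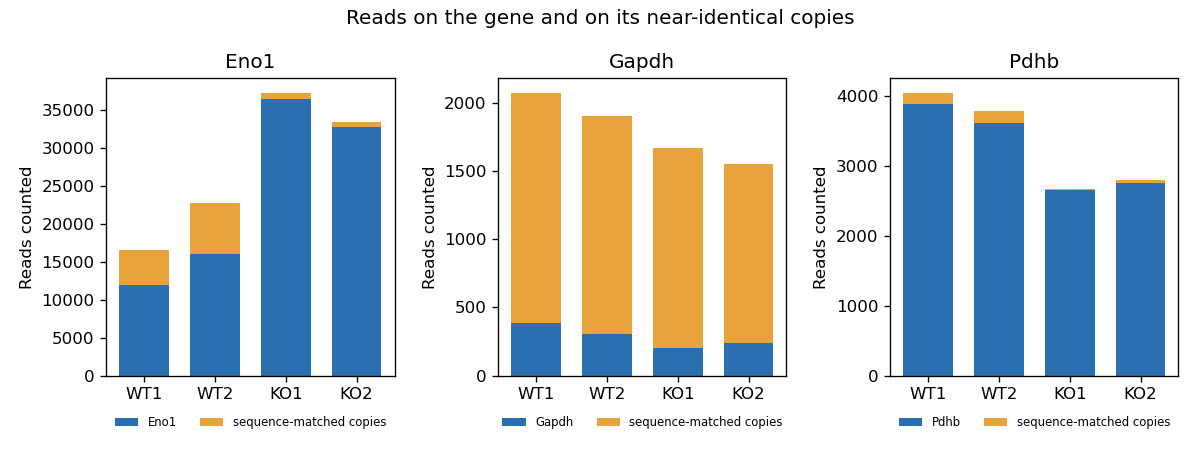
Reads counted on Eno1, Gapdh and Pdhb (blue) and on copies matched to each by sequence (orange), stacked for each library on separate axes from 0. The copies of Eno1 take 28.3% and 29.4% of the summed reads in WT1 and WT2 and 2.42% and 2.25% in KO1 and KO2, and those of Gapdh take most reads in every library.

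The other genes of these steps were not called. Pgk1, which makes the first ATP of the pathway, was second to Pkm by mean FPKM and had overlapping groups (log2 fold change 0.19, edgeR adjusted p = 0.554). Pgam1, a mutase, was at 0.62 (adjusted p = 0.0617), and Bpgm, known for its role in red blood cells, was at 0.38 (adjusted p = 0.267). The muscle enolase gene Eno3 was at 0.87 (adjusted p = 0.0546), and at 0.37 (adjusted p = 0.358) with chromosome medians removed. The neuronal enolase gene Eno2 was at -0.52 (adjusted p = 0.194). Eno1 held 91.8% and 93.1% of enolase FPKM in WT and 96.3% and 95.7% in Npac KO cells, its copies not included.

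Ldha and Ldhb encode the subunits of lactate dehydrogenase, of which Ldha is the form known for making lactate from pyruvate. Ldha (ENSMUSG00000063229, chromosome 7) was at 467 and 521 CPM in WT1 and WT2 and at 1328 and 796 CPM in KO1 and KO2. Both KO libraries were above WT, but KO1 was far above KO2, and the log2 fold change was 1.10 (standard error 0.26, edgeR adjusted p = 0.024). Without KO1 the log2 fold change was 0.68 and the call was lost (adjusted p = 0.202), as it was with limma-trend on log2(FPKM + 0.1) (1.05, adjusted p = 0.0524). Ldhb was not called (0.41, adjusted p = 0.182). Ldha made up 66.7% and 69.0% of the summed FPKM of the pair in WT and 78.7% and 75.2% in Npac KO cells.

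Lactate leaves cells through monocarboxylate carriers. Slc16a1 had a log2 fold change of 0.26 (edgeR adjusted p = 0.306). Slc16a3, the carrier known for lactate export, was at 34.3 and 60.7 CPM in WT1 and WT2 and at 108 and 66.9 CPM in KO1 and KO2 (log2 fold change 0.88, adjusted p = 0.0892). With chromosome medians removed its log2 fold change was 0.38 (adjusted p = 0.437). It overlaps Csnk1d on the opposite strand, which held 2457 and 2111 reads in WT and 2749 and 2597 reads in Npac KO libraries. It was called higher by DESeq2 (adjusted p = 0.0390), with no filter on low counts (0.00144) and with the replicate block (0.0190). For all 4 lactate genes KO1 and KO2 exceeded WT1 and WT2, as they did for 33.2% of all tested genes, and edgeR called Ldha alone while DESeq2 called 2 (Ldha and Slc16a3).

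**Figure D4:**
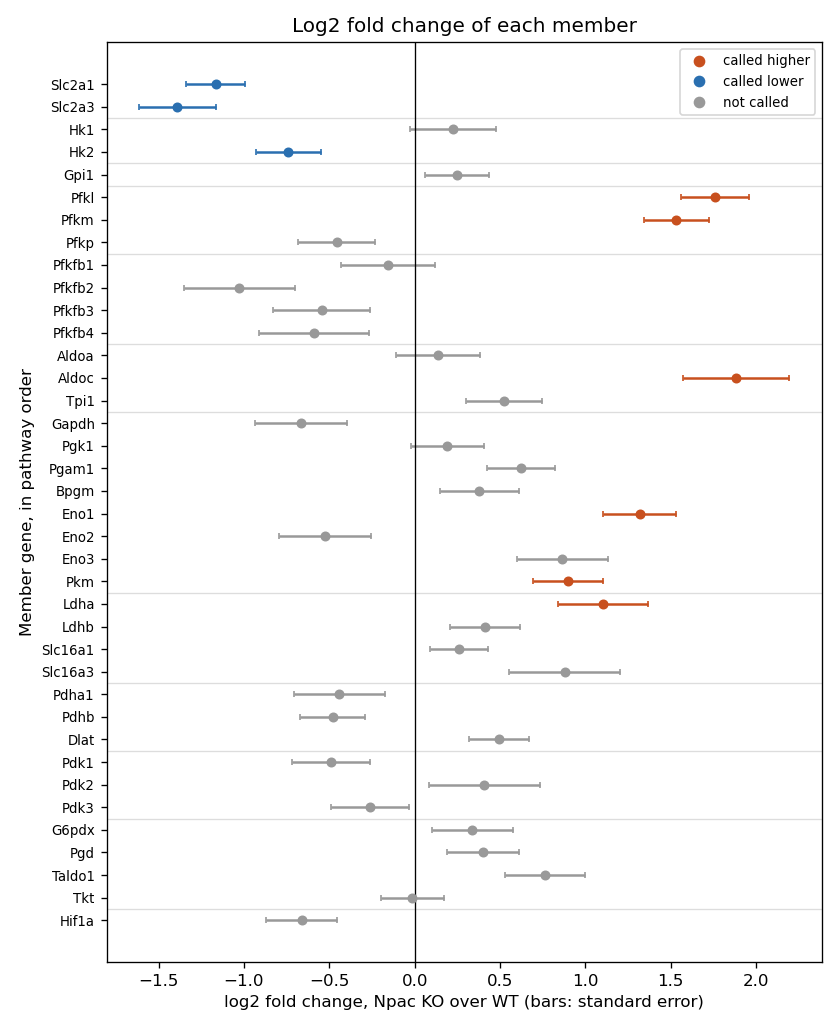
Log2 fold change of Npac KO over WT for each of the 38 genes in pathway order, with the standard error of the edgeR fit as bars and the call as colour. The 3 down-regulated genes stand at the entry of glucose, and the 6 up-regulated genes lie between phosphofructokinase and lactate dehydrogenase. In that same stretch Pfkp, the 4 Pfkfb genes, Gapdh and Eno2 have negative log2 fold changes and were not called. The calls of Hk2, Pkm and Ldha were not kept in every setting.

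The pyruvate dehydrogenase complex turns pyruvate into acetyl-CoA, and none of its 3 genes in the set was called by edgeR or DESeq2. At an unadjusted p under 0.05, edgeR gave 1 higher (Dlat) and 1 lower (Pdhb), beside 3403 higher and 3406 lower of all 18157 tested genes. Pdhb, the most abundant, was at 254 and 206 CPM in WT1 and WT2 and at 170 and 159 CPM in KO1 and KO2 (log2 fold change -0.48, edgeR adjusted p = 0.104). Pdha1, the catalytic alpha subunit, was at -0.44 (adjusted p = 0.268), and Dlat, the acetyltransferase core, was at 0.49 (adjusted p = 0.0811). The Pdk genes encode kinases that switch the complex off, and of the 3, 0 passed an unadjusted p under 0.05 in edgeR and 0 were called by DESeq2. Pdk1, the most abundant of them, was at 258 and 236 CPM in WT1 and WT2 and at 210 and 141 CPM in KO1 and KO2 (log2 fold change -0.49, adjusted p = 0.158). Pdk2 was at 0.41 (adjusted p = 0.399) and at -0.0870 with chromosome medians removed, and Pdk3 was at -0.26 (adjusted p = 0.437).

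None of the 4 pentose phosphate genes was called by edgeR, while Taldo1 alone had an unadjusted p under 0.05 and was called higher by DESeq2. Taldo1, a transaldolase of the non-oxidative branch, was the most abundant by mean FPKM, although Tkt held more reads in every library. Taldo1 came nearest to the threshold, at 164 and 251 CPM in WT1 and WT2 and at 364 and 342 CPM in KO1 and KO2. Both KO libraries lay above WT, but WT1 and WT2 themselves differed widely (log2 fold change 0.76, standard error 0.23, edgeR adjusted p = 0.0526). G6pdx, the entry enzyme, was at 0.34 (adjusted p = 0.335), and Pgd, the next oxidative enzyme, was at 0.40 (adjusted p = 0.211). G6pdx overlaps Ikbkg on the opposite strand, which held 706 and 623 reads in WT and 562 and 598 reads in Npac KO libraries. Tkt, the transketolase, had the smallest log2 fold change of the set, -0.0135 (standard error 0.18, adjusted p = 0.968).

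Hif1a was at 141 and 106 CPM in WT1 and WT2 and at 84.1 and 71.8 CPM in KO1 and KO2. Both KO libraries lay below both WT libraries, but the gene missed the threshold of the edgeR test, while DESeq2 called it lower (log2 fold change -0.66, standard error 0.21, edgeR adjusted p = 0.0566). HIF activity is set largely by the stability of the protein, which was not measured here.

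Summed FPKM over the genes of a step was led by the most abundant genes and was not tested. The sum of the triose to pyruvate steps was 906 ± 67.6 in WT and 1493 ± 253 in Npac KO cells, and that of the lactate genes 248 ± 13.3 and 453 ± 143 (SD, n = 2). The triose to pyruvate sum holds Eno1 at a mean FPKM of 157 in WT and 390 in Npac KO cells, without its copies. With the copies added, the log2 fold change of Eno1 was 0.84 instead of 1.32, so part of the rise of this sum depends on leaving them out. Its Gapdh value is that of the minority of reads assigned to the gene. The hexokinase sum was 67.3 ± 2.79 in WT and 47.0 ± 5.07 in Npac KO cells. The pentose phosphate sum was 193 ± 20.0 in WT and 266 ± 23.3 in Npac KO cells. The 38 genes together, without copies, took 1.13% and 1.23% of all reads in WT1 and WT2 and 1.47% and 1.29% in KO1 and KO2.

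The promoter windows of these genes were searched for the core of the HIF binding motif, since Hif1a belongs to the set and most of the called genes are known HIF targets. RefSeq windows (GRCm38.p6, from 250 bases before to 50 bases after the start) were found for 37 of the 38 symbols, 57 windows in all, some of which overlap. The letters ACGTG or GCGTG, on either strand, occurred in 73.68% of these windows and in 43.77% of all 32851 windows. Both cores contain the letters CG, and the windows compared were matched neither for base content nor for expression. Whether the difference in shares would remain with matched windows was not tested. The motif was present in at least 1 window of all 6 up-regulated genes, of both down-regulated genes with a window (Slc2a1 and Hk2) and of 24 of the 29 genes that were not called. Some genes have several windows, and the share of all genes with a match was not computed, so these counts per gene have no background. The E-box CACGTG, which contains the core on both strands, occurred in 12.28% of the windows of the set and in 7.15% of all windows. The 250 bases before the start are shown for 2 down-regulated and 2 up-regulated genes, with the core in capitals, so that its presence on both sides of the change can be seen. Each reads 5′ to 3′ along the gene, from chr4:119108495-119108744 (plus strand) for Slc2a1, chr6:82774455-82774704 (minus strand) for Hk2, chr10:78009808-78010057 (minus strand) for Pfkl and chr7:46845554-46845803 (plus strand) for Ldha.
Slc2a1: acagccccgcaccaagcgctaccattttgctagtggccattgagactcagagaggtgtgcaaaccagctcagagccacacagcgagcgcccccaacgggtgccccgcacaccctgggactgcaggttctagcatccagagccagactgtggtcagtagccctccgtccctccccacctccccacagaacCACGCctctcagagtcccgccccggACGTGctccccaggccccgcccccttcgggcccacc
Hk2: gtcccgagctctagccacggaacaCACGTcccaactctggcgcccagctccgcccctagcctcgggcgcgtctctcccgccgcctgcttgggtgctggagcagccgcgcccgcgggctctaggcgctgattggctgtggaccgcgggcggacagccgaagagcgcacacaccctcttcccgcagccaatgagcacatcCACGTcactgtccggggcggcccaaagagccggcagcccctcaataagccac
Pfkl: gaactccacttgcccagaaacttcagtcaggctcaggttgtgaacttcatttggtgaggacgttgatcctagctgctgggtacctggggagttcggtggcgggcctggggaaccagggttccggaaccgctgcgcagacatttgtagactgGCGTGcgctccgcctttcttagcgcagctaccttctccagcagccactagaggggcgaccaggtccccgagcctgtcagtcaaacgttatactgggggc
Ldha: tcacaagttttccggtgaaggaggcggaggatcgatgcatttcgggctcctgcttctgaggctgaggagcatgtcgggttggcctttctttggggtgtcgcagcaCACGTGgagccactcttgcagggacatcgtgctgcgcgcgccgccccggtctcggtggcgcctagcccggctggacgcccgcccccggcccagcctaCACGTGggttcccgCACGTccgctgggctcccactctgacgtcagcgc
Slc2a1 and Hk2 had 2 matches each in the full window, Pfkl had 1, and this Ldha window had 7, with each of its 2 E-boxes counted once for either strand. A match describes letters and not a bound site.

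The other genes of glucose metabolism are given as lists, to be read against the 11.0% of all tested genes called up and the 10.7% called down. Counts at an unadjusted p under 0.05 in edgeR are to be read against 3403 up and 3406 down of the 18157 tested genes. The shares of 11.0% and 10.7% belong to the main fit. Leaving out a library also changed the number of calls over all genes, so list counts from such fits cannot be read against these shares. A rise or fall of such a count is not shown to be particular to a list. Of 25 tested further glycolysis genes, 4 were called up (16%) and 2 down (8%), shares near those of all genes. Pgam2, the muscle mutase, was at 3.73 and 6.07 CPM in WT and 17.8 and 21.1 CPM in Npac KO libraries (log2 fold change 1.99, edgeR adjusted p = 0.00817), and Slc2a4, the insulin-responsive carrier, fell by 1.43 on the log2 scale. Gpd1 (1.90) and Pgm2l1 (1.35) were up-regulated and Adpgk (-0.62), an ADP-dependent glucokinase, was down-regulated. The remaining up-regulated gene was Gpd2 (0.89). Without WT2 the counts were again 4 and 2, without KO1 they were 2 and 0, and without KO2 they were 1 and 0. Limma-trend on FPKM called 1 up and 1 down at either pseudocount. The median of this list was 0.18.

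Of 10 further pentose phosphate and ribose phosphate genes, 4 were up-regulated (40%) and none was down-regulated at the threshold, with a median of 0.64. Rpe, the epimerase of the non-oxidative branch, was at 41.8 and 27.8 CPM in WT and 105 and 104 CPM in Npac KO libraries (log2 fold change 1.59, edgeR adjusted p = 0.00513). Tktl2 (2.01) and Prps2 (0.73) were also up-regulated, as was Prps1 (0.68). DESeq2 called 4 genes up and 1 down, limma-trend called 4 up on log2(FPKM + 1) and 1 up on log2(FPKM + 0.1), and at an unadjusted p under 0.05 edgeR gave 5 up and 2 down. Without KO1 the count up-regulated was 2, without KO2 it was 1, and without WT2 the counts were 5 up and 2 down.

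Of 10 further genes of pyruvate entry, 1 was up-regulated (10%) and 3 were down-regulated (30%), with a median of -0.17. Limma-trend and upper-quartile factors gave 1 up and 2 down. Mpc1 and Mpc2, the subunits of the mitochondrial pyruvate carrier, had log2 fold changes of -1.22 and -0.90, and Pdha2, the testis form of the alpha subunit, fell by 3.24. Pdha2 held fewer than 10 reads in at least 1 library. With a filter of at least 10 reads in every library, the list had 1 gene up and 1 down. The phosphatase gene Pdp2 was at 1.12. Without KO1, and also without KO2, 1 gene was called down and 0 up, without WT1 the counts were 2 up and 4 down, and with chromosome medians removed they were 0 and 1. Of 18 genes of the tricarboxylic acid cycle, 3 (16.7%) were called up. Ogdh (1.07), Mdh1 (1.03) and Cs (0.79) were up-regulated and none was down-regulated by edgeR (median 0.15). DESeq2 called 3 up and 1 down, and an unadjusted p under 0.05 in edgeR gave 6 up and 2 down. Without KO1 the count up-regulated was 1, and without WT2 it was 5 with 1 down-regulated. Of 4 tested gluconeogenesis genes Pck2 alone was called, at -1.07 (median of the list 0.67). Pck2 was not called without KO1, with chromosome medians removed, with upper-quartile factors or with limma-trend on FPKM at either pseudocount, and without WT2 the counts of the list were 2 up and 1 down.

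Of 18 HIF targets outside glycolysis, 2 were called up (11.1%) and 4 down (22.2%), against 11.0% and 10.7% of all tested genes. Vegfa, the angiogenic growth factor, was at 205 and 160 CPM in WT and 33.2 and 56.5 CPM in Npac KO libraries (log2 fold change -2.02, edgeR adjusted p = 0.00434). Loxl2 (-2.97) and Stc2 (-2.03) were down-regulated as well, and the fourth gene was Ddit4 (-1.10). Ak4, a mitochondrial adenylate kinase, was at 43.1 and 46.0 CPM in WT and 327 and 211 CPM in Npac KO libraries (2.59, adjusted p = 0.00114), and Mxi1 was at 0.91. The median of these 18 was -0.0934, and the counts were 3 up and 6 down without WT1, 5 and 4 without WT2, 1 and 3 without KO1, and 1 and 4 without KO2. Of 9 genes of HIF subunits and oxygen sensing, Arnt2 (-1.18) alone was called (median of the list -0.15). The call was lost with either KO library left out, and without WT2 the counts were 2 up and 2 down. Across these lists 25 genes were called, and 8 of them (Pgam2, Pdha2, Rpe, Vegfa, Loxl2, Stc2, Ak4 and Ogdh) were called with each library left out, while the others lost the call without KO1, KO2 or both. With chromosome medians removed Adpgk, Mpc1, Mpc2, Pdp2, Pck2, Ogdh and Mdh1 were no longer called.

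**Figure D5:**
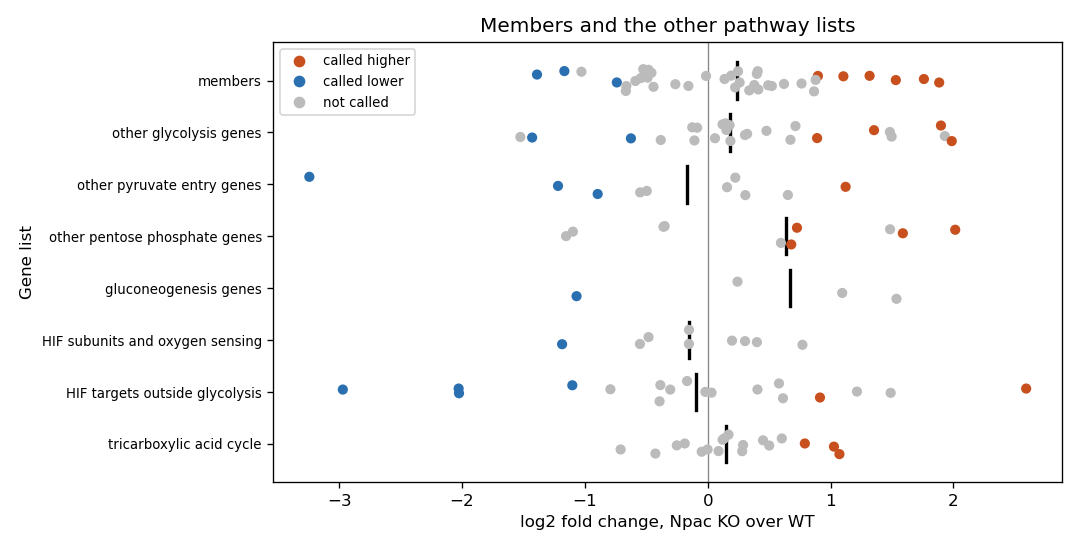
Log2 fold change of Npac KO over WT for the 38 genes (members) and for the genes of 7 other lists, with 1 point for each tested gene coloured by its call and a black bar at the median of each list. HIF targets outside glycolysis lie on both sides of 0, with a median of -0.0934, and the median of the other pentose phosphate genes is 0.64.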

How the data were processed

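RNA-seq libraries of WT (n = 2) and Npac KO (n = 2) E14 cells were compared. The submitters' processing notes list CASAVA, HISAT2 2.0.5, featureCounts 1.5.0-p3 and mm10. The authors deposited unnormalized counts of reads on each gene together with FPKM values, which equal those counts divided by gene length and a scaled library size (within 0.1% for all of 10322 genes with at least 100 reads in every library). Strand and multi-mapping settings are not given in the sources used here. Only 2.83% of gene positions in the table match a GRCm38 annotation, so the build is unsettled, chromosomes are given as deposited and coordinates only for RefSeq windows.

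Counts were fitted in R 4.3.3 with edgeR 4.0.16 (TMM, filterByExpr, quasi-likelihood test), and the test was checked on simulated counts. Alternatives used DESeq2 1.42.0, limma 3.58.1 on log2(FPKM + 1) and log2(FPKM + 0.1), other filters and normalizations, a replicate block, removal of chromosome medians, pseudogenes summed by name, and each library left out. Summing copies matched by blastn 2.17.0+ (90% identity over 60% of the copy) was chosen after seeing the data. The genes and lists were chosen with earlier results of these data known. Values in every library are given for called genes, the most abundant gene of each step by mean FPKM and Hif1a. At most 3 called genes a list in each direction were to be named, by size of log2 fold change. Ddit4, Gpd2 and Prps1 exceed this rule and were added after their values were seen, as were the copies and overlapping genes.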

Additional observations from a re-analysis of the deposited data

How the results depend on the processing

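Slc2a1, Slc2a3, Pfkl, Pfkm, Aldoc and Eno1 were called under all 11 alternatives to the test, scaling, filter or counting and with each of the 4 libraries left out. The number of genes of the set up-regulated rose from 6 to 10 with DESeq2, with no filter on low counts and with the replicate block, and lay between 4 and 13 with each library left out. The number down-regulated rose from 3 to 5 in the same 3 settings and lay between 2 and 10 with a library left out. Both extremes above the main count, 13 and 10, came without WT2. Over all genes, the replicate block called 3128 up-regulated and 2994 down-regulated, and leaving out a library gave 826 to 3571 and 821 to 3384. In the labels, a replicate number is the only thing that same-numbered libraries share, so the block does not make the design paired. Deviations of WT1 and KO1 from their group means nevertheless correlated at 0.33 over 18157 genes. Genes detected were 25916 in WT1 and 26247 in KO1, and 27278 in WT2 and 27331 in KO2. Whether same-numbered libraries share a batch was not tested. The median log2 fold change of the set lay between 0.0417, without WT1, and 0.30, without KO2, and was 0.11 without KO1. Among genes that were not called, the sign turned for Hk1 (-0.13 to 0.64 with a library left out), Aldoa (-0.13 to 0.42), Pdk3 (-0.52 to 0.0114) and Tkt (-0.12 to 0.0910), for Tkt also with upper-quartile factors (0.0202) and with chromosome medians removed (0.10), and for Pdk2 with the latter (-0.0870). The cause was not tested. Leaving out a library leaves 1 in its group, which is then assumed to vary like the other group. With 2 libraries a group and a common biological coefficient of variation of 0.24, a gene that missed the threshold is not shown to be equal between the groups.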
